A study of Equus caballus with 3 samples.

Results

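Adipose tissue (AT)-derived equine mesenchymal stromal cells (MSC) are the adherent, fibroblast-like cells that grow out of digested fat in culture. Here they were the 5403 cells of the AT library that held 2500 to 15000 unique molecular identifiers (UMIs, each standing for 1 captured transcript) with at most 3% of them on mitochondrially encoded genes, out of 16301 cells kept by the same limits in all 3 libraries. The other libraries gave 5580 bone marrow (BM)-derived and 5318 peripheral blood (PB)-derived MSC. All 3 sources came from 1 healthy warmblood mare of 10 years that carried no modification or treatment, were cultured in the same way and were taken for droplet-based 3′ single-cell RNA sequencing after the second passage. Each source was 1 library, so that a source cannot be told apart from its culture, its lane or its library, and no test between sources was possible. The titles of the samples name the tissue, whereas the source field gives the same blood cell description for all 3, and the titles were followed.

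MSC secrete and remodel extracellular matrix, release growth factors and chemokines, and can be driven in culture towards fat, bone and cartilage. In fat they lie in the stromal vascular fraction around vessels and between adipocytes, whereas in marrow they neighbour bone and support blood formation. Cultured stromal cells are known to keep part of the positional program of their tissue, which is set by homeobox and other patterning transcription factors.

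The kept AT cells held 39980590 UMIs over the 29850 genes found in all 3 files, and those of BM and PB held 40239275 and 41622444. The median cell held 7291 UMIs in the AT library, against 6874.5 for BM and 7750 for PB. A count of 3 UMIs, the floor used below, was worth 0.0750, 0.0746 and 0.0721 CPM in AT, BM and PB, where CPM are UMIs scaled to a total of 1000000 per source. Intervals are exact 95% Poisson intervals on summed UMIs, and they cover counting error only. Cells scored as G1 made up 63.8% of AT, 74.7% of BM and 76.0% of PB cells. Phases were scored within each library, so these shares are not on a common scale. The 37 mitochondrially encoded genes took 1.46%, 1.97% and 1.56% of the kept UMIs of AT, BM and PB, and none of the 19 tested among them differed 2-fold from both other sources.

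Cell barcodes were shared between the libraries, unevenly. All 5318 kept PB barcodes were also listed in the AT file, where 5279 of them were among the 6155 AT barcodes under the UMI limit. Of the 5403 kept AT barcodes, 74 were in the PB file and 48 in the BM file, and 5284 were in neither. The AT barcodes under the limit that were in the PB file (5711 barcodes with a median of 829 UMIs) held the AT markers IGFBP5 at 8.95 CPM, MFAP4 at 7.93 CPM and DES at 4.07 CPM, far from their levels in kept AT cells. The 444 barcodes under the limit that were not in the PB file held them at 187, 129 and 200 CPM (199.8 CPM for DES). The 223 barcodes within 500 UMIs above the limit held IGFBP5 at 224 CPM, and the 207 within 500 UMIs below it at 118 CPM. The results below were therefore also computed without the AT barcodes found in another file, an alternative chosen after seeing the data. It also left out BM and PB cells whose barcodes were kept in another source, so that 5503 BM and 5246 PB cells remained. Of the 82 genes counted as gained in AT below, 81 remained, and of the 223 counted as lost, 220 remained.

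The markers of AT-derived MSC were high in the library labelled AT. IGFBP5, which encodes a secreted binding protein of insulin-like growth factors, stood at 258 CPM in AT, 16.2 CPM in BM and 0.024 CPM in PB, and 54.9% of AT cells held a UMI of it against 5.91% and 0.0188%. MFAP4, a glycoprotein of elastic microfibrils, stood at 179, 0.472 and 1.61 CPM. DES, the muscle intermediate filament desmin, stood at 204, 5.04 and 0.288 CPM. CD248 (endosialin), a membrane glycoprotein of perivascular and stromal cells, stood at 215, 28.7 and 38.0 CPM. ADM, the vasodilator peptide adrenomedullin, stood at 729.8, 110.0 and 60.8 CPM. All 5 were at least 2-fold above both other sources. Since the study itself lists these genes for AT, they check the library and are not independent evidence.

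Markers of other cell types were read across the whole of each list. Of 13 haematopoietic markers in the files, 4 had no UMI in AT, among them PTPRC (CD45) and CD14, and the list summed to 10.2, 17.9 and 9.61 CPM in AT, BM and PB. Of 11 endothelial markers, 5 had no UMI in AT, among them PECAM1, CDH5 and KDR, and the list summed to 6.13, 3.53 and 4.88 CPM. The 5 epithelial markers summed to 0.750 CPM in AT, with EPCAM, CDH1 and KRT14 at 0 UMIs. The 7 markers of mature adipocytes, such as ADIPOQ with 8 UMIs and FABP4 with 1 UMI in AT, summed to 2.35, 4.25 and 0.408 CPM. The 8 Schwann cell markers summed to 102, 66.5 and 78.1 CPM, mostly from the receptor gene ERBB3 (92.3, 63.8 and 76.7 CPM), with SOX10, CDH19 and FOXD3 at 0 UMIs in AT. PTPRC, PECAM1, CDH5 and EPCAM had no UMI in the AT library, while some markers of pericytes and mesothelium, given below, were present and others were not.

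Genes were compared between sources by the difference of log2(CPM + 1), a scale on which a pseudocount of 1 CPM makes the change of low genes look smaller than it was. A gene was counted as gained when AT lay at least 1 above the higher of BM and PB, a 2-fold limit, and as lost when it lay at least 1 below the lower of them. Of 6550 genes with a mean of at least 10 CPM over the 3 sources, 82 were gained (1.25% of the genes tested) and 223 were lost (3.40%). The losses outnumbered the gains under every alternative tried. A gene found in AT alone needs a higher level to pass the filter on the mean than a gene that only AT lacks. With no filter, 241 genes were gained and 435 lost, so that 35.7% of the called genes were gained instead of 26.9%. With a mean of at least 50 CPM this share was 29.5%, from 28 gained and 67 lost genes. The part of the filter in the excess of losses was not tested. No filter and another scaling were not tried together. At a 4-fold limit, 22 genes were gained (0.336%) and 73 lost (1.11%). The median gained gene lay 1.45 above the higher of the other sources and the median lost gene 1.56 below the lower of them on the log2 scale. For 67 of the 82 gained and 172 of the 223 lost genes the nearer end of the counting interval was also past the limit.

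By the same rule, BM had 136 genes above and 29 below both other sources, and PB had 70 above and 102 below. The order of these counts was scale dependent. The median difference of all tested genes was -0.13 for AT against the mean of the others on the CPM scale, and it became 0.03 with the trimmed mean of M values (TMM), where BM had 74 genes above and 60 below both others and AT had 106 gained and 191 lost genes. Against BM alone, AT was at least 2-fold higher for 133 genes (2.03%) and lower for 471 (7.19%), so that 22% of the genes past the limit were higher in AT. With TMM this share was 42.9%, from 231 higher and 308 lower genes. Against PB alone, AT was higher for 208 genes (3.18%) and lower for 328 (5.01%), a share of 38.8% higher, which was 41.7% with TMM. Both comparisons share the AT library.

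**Figure D1:**
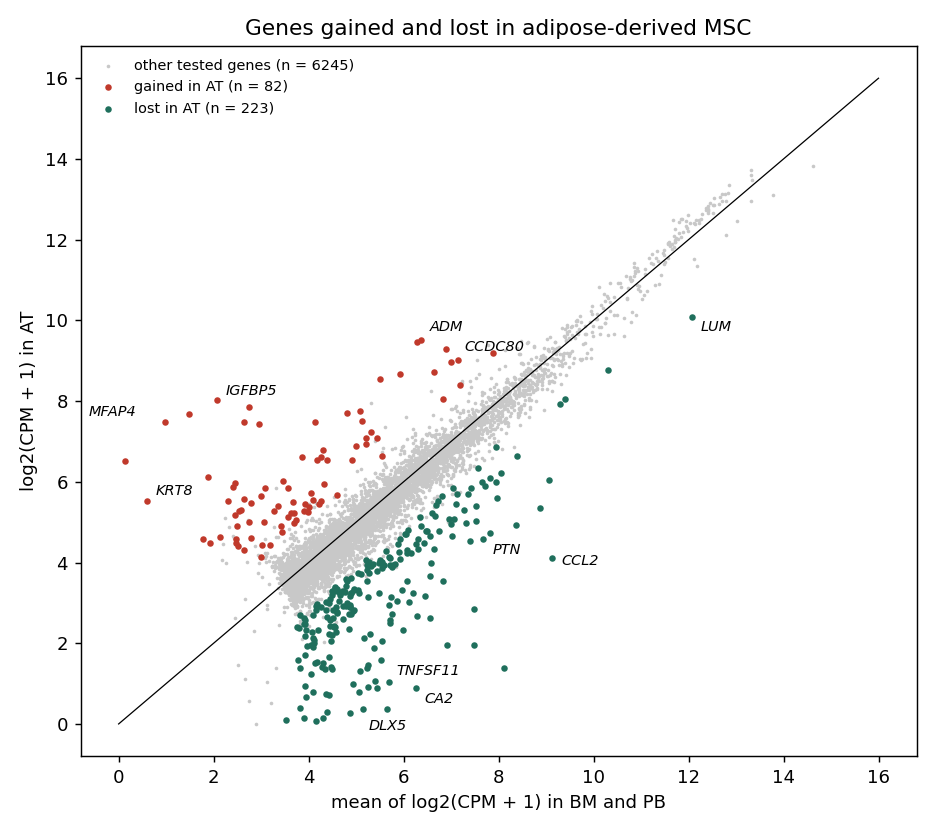
Each point is 1 of the 6550 tested genes, with the mean of log2(CPM + 1) in bone marrow (BM) and peripheral blood (PB) on the x axis and log2(CPM + 1) in adipose tissue (AT) on the y axis, and the line marks equal levels. The 82 gained genes (red) lie above the line, the 223 lost genes (green) below it, and a group of lost genes such as DLX5, CA2 and TNFSF11 lies near 0 on the y axis.

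Many of these genes are not among those that the study lists as differing between the sources. Those lists hold genes raised in a source against all others, by a test over cells and with a minimum share of cells detecting them. They include no list of genes lost in a source. The counts on and off the lists therefore set unlike rules side by side. Of the 82 gained genes, 28 were on those lists and 54 were not. Of the 223 lost genes, 31 were on them and 192 were not. The study's AT list held 37 genes and all were tested, and 28 of them were gained here, which is no independent evidence since the list was drawn from these cells. Of the 35 genes of its BM list 21 were lost, and of the 20 genes of its PB list 10 were lost and 1, MGP, was gained.

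The gained genes outside those lists began with KRT8, a keratin of simple epithelia on chromosome 6. KRT8 stood at 45.4 CPM in AT, with a 95% interval of 43.3 to 47.5 CPM. Its level was 1.22 CPM in BM and 0.024 CPM in PB, where a single UMI was counted. The AT level lay 4.39 above BM and 5.50 above PB on the log2 scale. A UMI of KRT8 was seen in 14% of AT cells, 0.573% of BM cells and 0.0188% of PB cells.

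G0S2, an inhibitor of the lipase that starts triglyceride breakdown, was the next by size. It stood at 61.6 CPM in AT, 5.12 CPM in BM and 3.89 CPM in PB, and its AT level lay 3.35 above the higher of them (3.13 to 3.58). One in 4 AT cells held a UMI of G0S2 (25.2%), against 3.48% and 2.93%. MMP23B, a membrane-bound metalloproteinase, stood at 35.4, 3.93 and 5.05 CPM. MITF, a transcription factor of melanocytes and of the lysosome program, stood at 23.6, 3.40 and 3.39 CPM. The BM and PB levels of MITF could not be told apart within counting error (2.86 to 4.02 and 2.85 to 4.0 CPM). RABGAP1L, which encodes a regulator of Rab GTPases in vesicle traffic, stood at 109.6, 20.6 and 17.3 CPM and was seen in 50.7% of AT cells.

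Receptors and cell surface proteins formed part of the gained genes. F2RL2, a protease-activated receptor that binds thrombin, stood at 49.5 CPM in AT, 9.37 CPM in BM and 5.17 CPM in PB. ACKR4, a decoy receptor that takes up the chemokines CCL19 and CCL21, stood at 38.2, 2.29 and 9.90 CPM. ACKR4 was the gene of this group with PB above BM. PLPP3, a phosphatase of lysophosphatidic acid at the cell surface, stood at 23.1, 6.34 and 0.601 CPM. LAPTM4B, a lysosomal membrane protein, stood at 43.4, 12.7 and 2.52 CPM.

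Among the named gained genes, CCDC80, THBS2 and COL18A1 encode secreted matrix proteins, while other such genes were lost (NID1 and the proteoglycans below). CCDC80, a matrix protein known from adipose tissue, stood at 517 CPM in AT, 152 CPM in BM and 129 CPM in PB, and 90.8% of AT cells held a UMI. THBS2, a matricellular thrombospondin, stood at 496, 149 and 107 CPM. COL18A1, the basement membrane collagen that is cleaved to endostatin, stood at 23.1, 4.97 and 4.18 CPM. CCDC80 lay 1.76, THBS2 1.73 and COL18A1 2.01 above the higher of the other sources on the log2 scale.

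The remaining named genes were regulators and a metabolic enzyme. CELF2, an RNA-binding protein of splicing, stood at 29.0, 7.46 and 2.76 CPM in AT, BM and PB. OSR2, an odd-skipped related zinc finger factor of limb and joint patterning, stood at 31.1, 8.4 and 3.77 CPM. ACSM3, a mitochondrial acyl-CoA synthetase of medium-chain fatty acids, stood at 44.1, 13 and 10.5 CPM. Of the gained genes without a symbol, ENSECAG00000030857 on chromosome 1 stood at 56.6, 13.4 and 4.01 CPM and ENSECAG00000032694 on chromosome 10 at 96.5, 38.4 and 8.31 CPM. For all of these genes the AT level lay above both others by more than the counting intervals.

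The lost genes outside the study's lists included genes of the osteoblast program. DLX5, a homeobox factor of bone formation on chromosome 4, stood at 0.30 CPM in AT (12 UMIs), 59.2 CPM in BM and 41.0 CPM in PB. It was seen in 0.222% of AT cells, against 29.1% and 24.6%. TNFSF11 (RANKL), the ligand that drives osteoclast formation, stood at 1.05, 42.6 and 61.2 CPM. SP7 (osterix), the factor that commits cells to the osteoblast lineage, stood at 0.20 CPM in AT (8 UMIs), 23.7 CPM in BM and 33.9 CPM in PB. On the log2 scale the AT level of DLX5 lay 5.01 below the lower of the others, that of TNFSF11 4.41 and that of SP7 4.36 below.

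Part of the few UMIs of these genes in AT lay in barcodes shared with another file. Without the AT barcodes found elsewhere, DLX5 stood at 0.153 CPM in AT instead of 0.30 CPM, SP7 at 0.128 CPM instead of 0.20 CPM, and TNFSF11 at 0.817 CPM instead of 1.05 CPM. All 3 moved further from the levels of BM and PB.

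Enzymes and adaptor proteins made up another part of the lost genes. CA2, the carbonic anhydrase II of osteoclasts, erythrocytes and renal cells, stood at 0.850 CPM in AT, 58.1 CPM in BM and 97.7 CPM in PB. EPHX1, the microsomal epoxide hydrolase, stood at 1.60, 49.8 and 26.7 CPM. INSC, an adaptor protein that orients the mitotic spindle, stood at 0.30, 28.8 and 41.1 CPM, and at 0.153 CPM in AT without the barcodes found in another file. SYTL2, an effector of Rab27 in vesicle transport, stood at 0.850, 55.2 and 32.9 CPM. NXN, the thioredoxin family member nucleoredoxin, stood at 8.45, 73.6 and 71.6 CPM.

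Regulators and secreted factors followed. EYA2, a transcriptional coactivator with phosphatase activity, stood at 0.225, 21.6 and 18.2 CPM. LBH, a transcriptional regulator in the WNT pathway, stood at 4.05, 57.8 and 66.9 CPM. C15H2orf40, which corresponds to the human gene of the secreted peptide precursor augurin, stood at 0.725, 35.8 and 29.5 CPM. PTN (pleiotrophin), a heparin-binding growth factor, stood at 22.8 CPM in AT, 200.03 CPM in BM and 209 CPM in PB and was seen in 12.8% of AT cells against 59.2% and 65.0%. NID1, which links laminin and collagen IV in basement membranes, stood at 10.6, 96.2 and 132 CPM. KRT1, a keratin of the epidermis, stood at 2.70, 55.5 and 29.7 CPM, so that AT was the lowest source for KRT1 and the highest for KRT8. The identifiers ENSECAG00000027862 on chromosome 10 (0.050, 16.1 and 17.4 CPM) and ENSECAG00000010565 on chromosome 12 (2.00, 42.2 and 48.7 CPM) were the largest losses without a symbol.

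**Figure D2:**
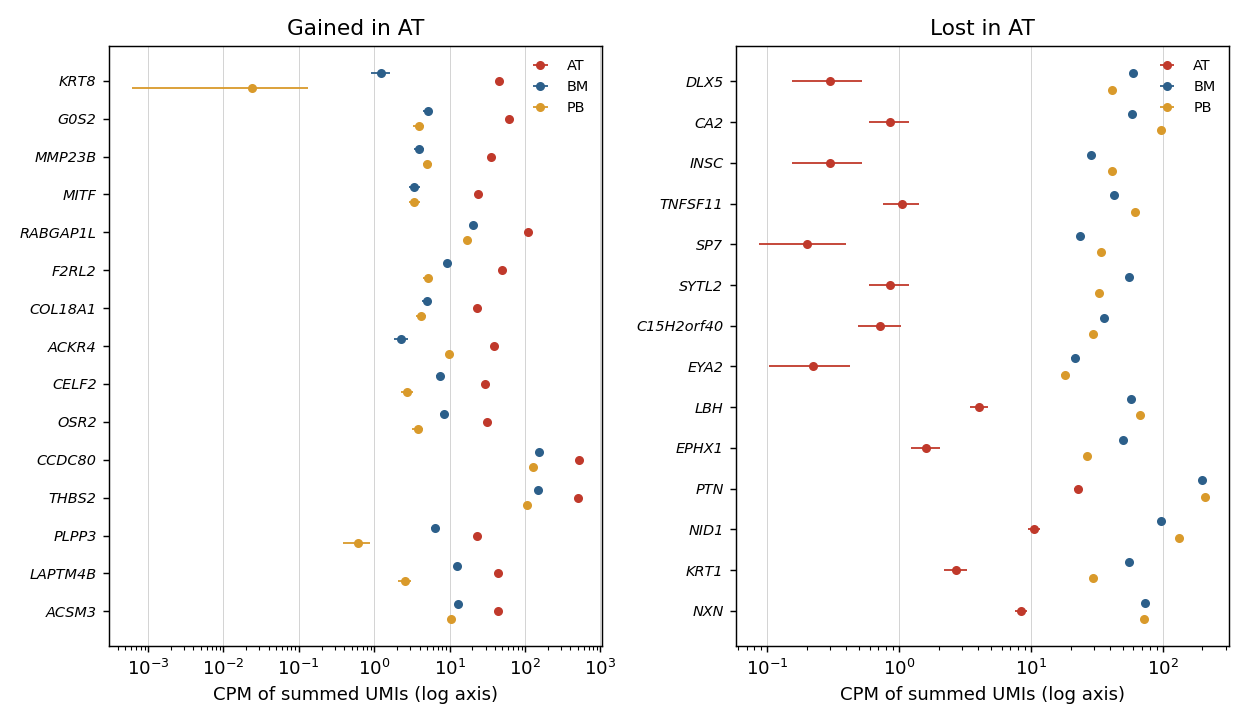
CPM of summed UMIs (log axis) in AT (red), BM (blue) and PB (yellow) for the 15 gained genes (left) and 14 lost genes (right) that are not on the study's lists, with exact 95% Poisson intervals as bars. For each gene in the left panel the AT point lies right of both others, from KRT8 (45.4 CPM against 1.22 and 0.024 CPM) to ACSM3, and for each gene in the right panel it lies left of both, with intervals that do not overlap.

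Some genes were close to exclusive. Of 11578 genes with at least 30 UMIs in AT, 30 (0.259%) had at most 3 UMIs in each of the other libraries, and 20 of these had a symbol. None reached the mean of 10 CPM, so they are not among the 82 gained genes. IL33, a nuclear alarmin cytokine of stromal and barrier cells, had 350 UMIs in 226 AT cells, 1 UMI in BM and 2 UMIs in PB. COL14A1, a collagen that associates with fibrils, had 305 UMIs in AT and none in either other library. This makes it at least 102-fold higher than in BM and at least 105.8-fold higher than in PB, each against a floor of 3 UMIs per library. LIX1, a gene of limb and visceral mesenchyme, had 281, 3 and 2 UMIs. ZBED2, a zinc finger factor, had 242, 1 and 0 UMIs. Each of these 4 genes was seen in 3.81% to 4.90% of AT cells.

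In the other direction, 49 of 11351 genes with at least 30 UMIs in both BM and PB (0.432%) had at most 3 UMIs in AT, and 42 of these had a symbol. ENSECAG00000027862 had 2, 649 and 725 UMIs in AT, BM and PB. ENSECAG00000034476 on chromosome 31 had 1, 341 and 599 UMIs. ACSS3, a mitochondrial short-chain acyl-CoA synthetase, had 1, 449 and 304 UMIs. DLX6, the neighbour and partner of DLX5 in bone and limb development, had 2, 245 and 396 UMIs. EVA1C, a membrane protein that binds heparin, had 2, 256 and 240 UMIs. By the same rule, 31 genes were found in BM only and 14 in PB only, while 1 gene was missing from BM alone and 69 from PB alone.

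Lists of genes with known roles were then described by their counts and their median difference of log2(CPM + 1) of AT against the mean of BM and PB, beside the median of -0.13 and the shares of 1.25% gained and 3.40% lost over all tested genes. For counts against BM alone, the shares over all tested genes were 2.03% higher and 7.19% lower in AT. Against PB alone they were 3.18% higher and 5.01% lower. Those against BM shifted with TMM, as given above. The called members that the study lists were 1 of 6 in the osteoblast list and 3 of 8 among the adhesion receptors, and they are no independent evidence. All 3 called members of the elastic fibre list were on the study's lists. The same held for the 3 lost collagens and for every called member of the hypoxia, integrated stress response, interferon and WNT lists. Of the lost members, it held for 2 of 3 proteases and 1 of 4 chemokines and immune modulators. Some called members of the contractile, CCN, TGF-beta and retinoic acid lists were on them too. The osteoblast list had the lowest median of the 23 lists with a tested member. With a pseudocount of 10 CPM, which weighs low genes less, 23 of the called list members were no longer called, namely AMOTL1, WISP1, IGFBP2, INHBA, SMAD6, SMAD7, TGFB3, TGFBR3, ITGA4, ITGA11, SDC1, SDC3, PSMB9, TAP1, CXCL1, SERPING1, TFPI2, CTSK, HAND2, HEY1, TBX15, DHRS3 and FMOD.

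Of 9 tested osteoblast genes, 6 were lost and none gained, with a median of -4.16. Beside DLX5, TNFSF11 and SP7, they included ALPL and OMD. ALPL, the alkaline phosphatase of mineralising cells, stood at 2.88, 96.0 and 326 CPM in AT, BM and PB, and OMD (osteomodulin), a proteoglycan of mineralised matrix, at 7.23, 56.6 and 58.2 CPM. SPARC (osteonectin), a calcium-binding matrix protein and a tested member that was not called, showed AT levels within 0.23 of both others. It was named after its values were seen. The cartilage and tendon list had no tested member.

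**Figure D3:**
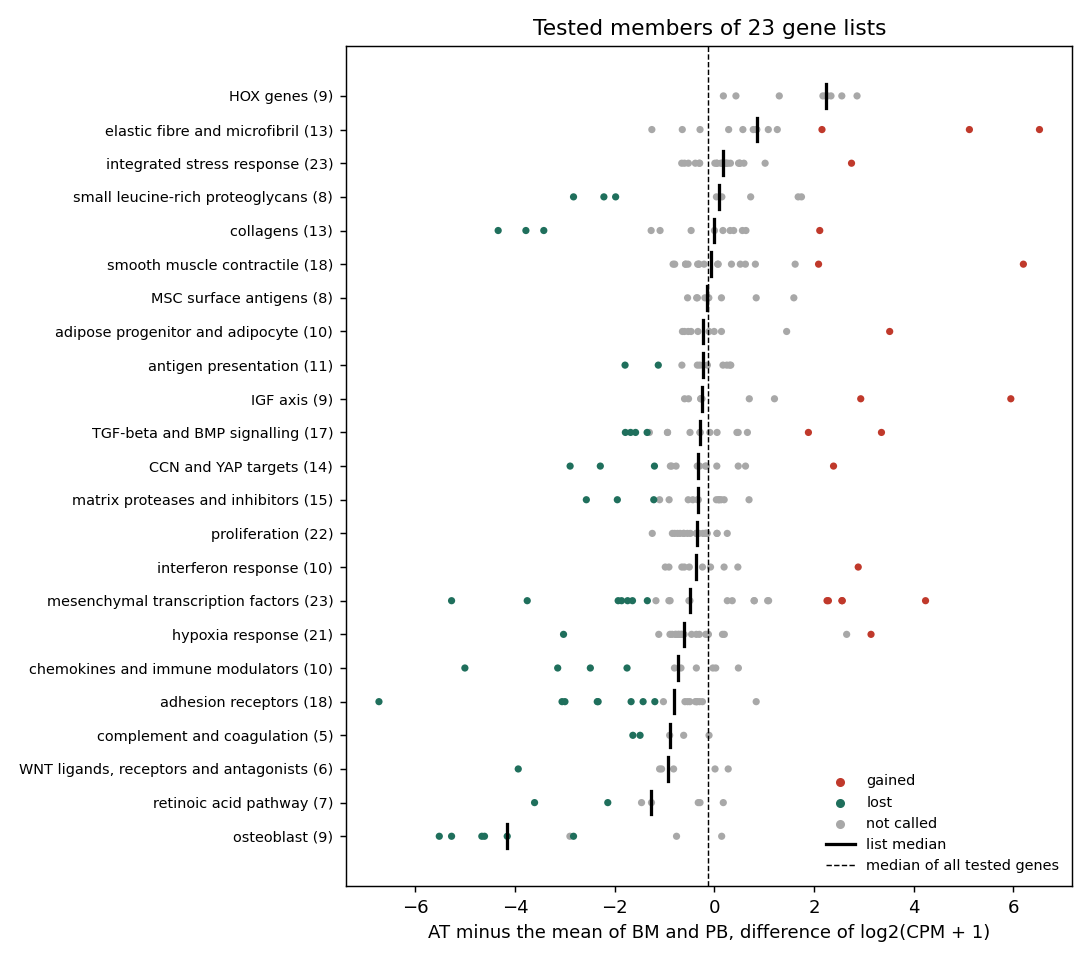
Tested members of 23 gene lists (number of tested members in parentheses), plotted by the difference of log2(CPM + 1) of AT against the mean of BM and PB, with gained members in red, lost members in green, the list median as a black bar and the median of all tested genes (-0.13) as a dashed line. The osteoblast list has its median at -4.16 and the HOX list at 2.23, and most other medians lie within 1 of the dashed line.

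Adhesion receptors held a larger share of lost members than all tested genes. Of 18 tested, 8 were lost and none gained, with a median of -0.81. JAM2, a junctional adhesion molecule, stood at 1.60 CPM in AT, 456 CPM in BM and 166 CPM in PB. GJA1 (connexin 43), the main gap junction channel of stromal cells, stood at 65.4, 592 and 474 CPM. SDC2, a cell surface heparan sulfate proteoglycan, stood at 30.4, 157 and 158 CPM. CDH11, the cadherin of mesenchyme and osteoblasts, stood at 24.4, 111 and 148 CPM. The other lost members were ITGA4, ITGA11, SDC1 and SDC3, which the rule for names does not cover. With TMM, SDC1 and SDC3 were not past the limit (-0.82 and -0.81 against the lower of the others). Not all surface receptors followed, since CD44, the hyaluronan receptor, stood at 691 CPM in AT, 285 CPM in BM and 522 CPM in PB.

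Among 8 tested MSC surface antigens, none was gained or lost. THY1 (CD90) stood at 665 CPM in AT, 531 CPM in BM and 90.5 CPM in PB, so that AT lay 0.32 above BM and 2.86 above PB on the log2 scale. The median of this list was -0.15 and turned to 0.01 with TMM and with median-of-ratios factors.

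The elastic fibre and microfibril list had 3 gained and no lost members among 13 tested, and a median of 0.84 that was 1.01 with TMM. FBLN1 (fibulin 1), a glycoprotein of elastic fibres and basement membranes, stood at 232, 33.4 and 0.312 CPM in AT, BM and PB. EFEMP1 (fibulin 3) stood at 92.8, 35.8 and 11 CPM. MFAP4, the remaining gained member, is given above.

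Among 13 tested collagens, COL18A1 was gained and COL6A3, COL8A1 and COL8A2 were lost. COL6A3, a chain of microfibrillar collagen VI, stood at 29.7 CPM in AT, 214 CPM in BM and 506 CPM in PB. COL8A1 stood at 0.875, 107 and 12.4 CPM and COL8A2, its partner in the hexagonal network of collagen VIII, at 1.48, 49.1 and 22.2 CPM. The list's median was 0.00 and had no stable sign, being 0.16 with TMM and -0.17 in G1 cells only.

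Of 8 small leucine-rich proteoglycans tested, 3 were lost and none gained. LUM (lumican), which spaces collagen fibrils, stood at 1090 CPM in AT, 4095 CPM in BM and 4535 CPM in PB. FMOD (fibromodulin), which binds collagen I, stood at 2.28, 27.6 and 7.11 CPM. FMOD was not past the limit after thinning to 2500 UMIs (-0.86) or with a pseudocount of 10 CPM (-0.48). The median of the list, 0.09, lay near 0 and turned to -0.02 in G1 cells only. OMD, the third of them, is given above.

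Proteases and their inhibitors had 3 lost and no gained members among 15 tested. TIMP3, a matrix-bound inhibitor of metalloproteinases, stood at 15, 122 and 72.1 CPM in AT, BM and PB. PLAUR, the urokinase receptor, stood at 44.7, 101 and 109.5 CPM. CTSK (cathepsin K), a collagen-degrading protease, stood at 62.5, 471 and 126 CPM and lay just past the limit against PB. With TMM neither CTSK nor PLAUR was past the limit, at -0.96 and -0.89 against the lower of the others, and CTSK missed it under 8 of the alternatives.

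Secreted signals of the immune system were among the lost genes. Of 10 tested chemokines and immune modulators, 4 were lost and none gained. CCL2, the main attractant of monocytes, stood at 16.3 CPM in AT, 553 CPM in BM and 560.0 CPM in PB. CCL7, a monocyte attractant encoded next to CCL2 in other mammals, stood at 4.98, 31.2 and 85.7 CPM. The neutrophil attractants CXCL6 (4.10, 27.7 and 27.6 CPM) and CXCL1 (3.5, 13.5 and 14.9 CPM) were lower in AT by 2.49 and 1.69 on the log2 scale against the lower of the others. Chemokines of 1 subfamily are similar in sequence, and how reads between them were split was not tested.

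The lists of antigen presentation and interferon response had few called members. Of 11 tested antigen presentation genes, 2 were lost, the transporter TAP1 (5.48, 13.2 and 13.1 CPM, not past the limit with TMM at -0.88) and the immunoproteasome subunit PSMB9 (3.83, 10.7 and 22.8 CPM). With a minimum of 500 UMIs neither was past the limit (-0.93 for TAP1 and -0.71 for PSMB9), nor with a pseudocount of 10 CPM (-0.58 for each). Of 10 tested interferon response genes, EPSTI1, an interferon-induced stromal interaction gene, was gained at 206, 32.2 and 22.7 CPM, while IFIT5 (6.75, 15.2 and 13.6 CPM) did not pass the limit against both. EPSTI1 thus stood apart from the other tested members of its list. Of 5 complement and coagulation genes, the inhibitors TFPI2 (8.93, 25.6 and 34.8 CPM) and SERPING1 (14.9, 37.5 and 51.0 CPM) were lost. TFPI2 was not past the limit in G1 cells only (-0.99), SERPING1 with a minimum of 500 UMIs (-0.95), and neither with a pseudocount of 10 CPM (-0.91 and -0.93).

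Patterning transcription factors were exchanged in both directions. Of 23 tested mesenchymal factors, 5 were gained and 7 lost, with a median of -0.49. FOXS1, a forkhead factor of perivascular cells, stood at 68.8 CPM in AT, 1.32 CPM in BM and 4.92 CPM in PB. OSR1, the paralogue of OSR2 and a marker of fibro-adipogenic progenitors, stood at 64.1, 10.1 and 9.97 CPM. EMX2, a homeobox factor of the urogenital system and shoulder girdle, stood at 56.7, 5.19 and 21.6 CPM. TBX15, a T-box factor known from fat depots, stood at 21.3, 8.30 and 0.529 CPM, and OSR2 is given above. The mean of TBX15 lay at the limit of 10 CPM and fell under it in 4 of the alternatives.

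Among the lost factors, HAND2, a helix-loop-helix factor of heart and limb, stood at 0.100, 7.43 and 25.2 CPM in AT, BM and PB, and at 0.0255 CPM in AT without the barcodes found in another file. SOX4 stood at 17.8, 77.7 and 64.4 CPM and HEY1, a target of Notch signalling, at 4.05, 15.9 and 19.0 CPM. The other lost factors were DLX5 and, named after their values were seen, TWIST1, SNAI1 and IRX3. None of the 7 lost factors was on the study's lists, and 2 of the 5 gained ones were.

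HOX genes, which record the position of a cell along the body axis, separated the sources in another way. The 37 HOX genes in the files summed to 10328, 14918 and 16 UMIs in AT, BM and PB. All 9 tested HOX genes were at least 2-fold higher in AT than in PB, beside 3.18% over all tested genes. None of the 9 differed 2-fold from both other sources. HOXA9 stood at 33.5 CPM in AT, 21.6 CPM in BM and 0 in PB, and HOXA10 at 28.5, 19.7 and 0.216 CPM. Between AT and BM the summed level depended on the paralogue group, the position within a cluster. The AT level was 0.144 times that of BM in group 3, 0.194 times in group 5, 1.07 times in group 9, 1.94 times in group 10 and 3.05 times in group 11.

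**Figure D4:**
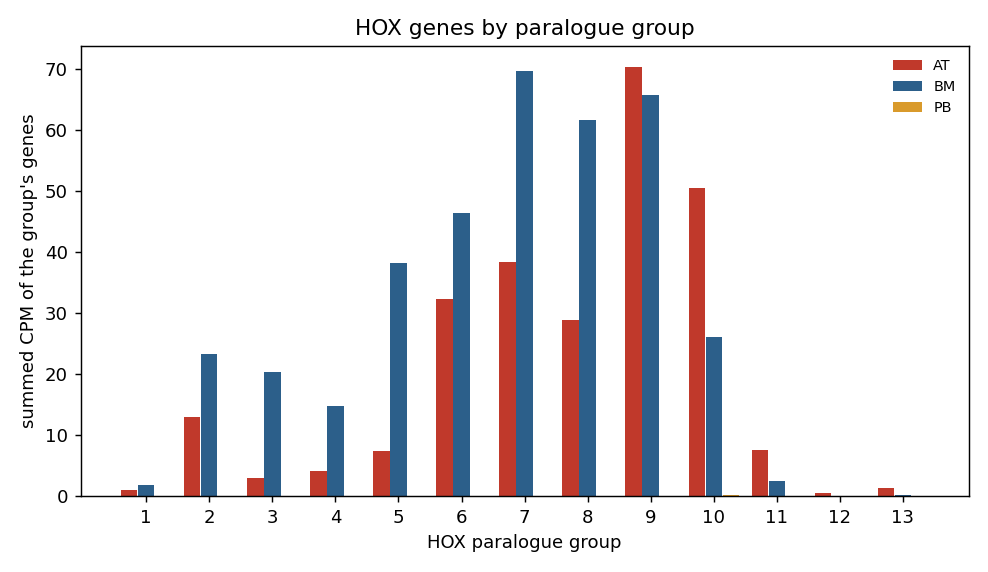
Summed CPM of the HOX genes of each paralogue group (x axis, group 1 to 13) in AT (red), BM (blue) and PB (yellow), as bars from 0. BM bars exceed AT bars in groups 1 to 8, AT bars exceed BM bars from group 9 onwards, and PB bars are not visible at this scale.

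The list of adipocyte and adipose progenitor genes had a single called member. Of 10 tested members only G0S2 was gained, none was lost, and the median was -0.22, or -0.06 with TMM. CEBPD, an early factor of fat cell differentiation, stood at 43.0 CPM in AT, 8.18 CPM in BM and 27.4 CPM in PB, so that it passed the limit against BM alone. ACSL1, a long-chain acyl-CoA synthetase, stood at 9.50, 15.2 and 15.5 CPM.

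In the IGF axis, the binding proteins IGFBP5 and IGFBP2 were gained among 9 tested members, and both are on the study's AT list. IGFBP2 stood at 46.7 CPM in AT, 21.0 CPM in BM and 0.769 CPM in PB. IGFBP2 was not past the limit with a minimum of 500 UMIs (0.98) or a pseudocount of 10 CPM (0.87). The median of the list was -0.25 and turned to 0.14 without the mitochondrial limit.

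The contractile genes of smooth muscle had 2 gained members among 18 tested, DES and ACTG2. ACTG2, the enteric smooth muscle actin, stood at 422 CPM in AT, 184 CPM in BM and 52.4 CPM in PB. The median of the list was -0.07, and 0.09 with TMM and 0.01 in G1 cells, so that its sign depended on the setting. Of 4 tested pericyte markers, CD248 was gained, while CSPG4 (NG2), the surface proteoglycan of pericytes, was lost at 1.98, 7.38 and 21.6 CPM. The 12 pericyte markers summed to 521, 303 and 109 CPM, with KCNJ8 and ABCC9 at 0 UMIs in AT. CD248, itself an AT marker on the study's AT list, made up 215, 28.7 and 38.0 CPM of these sums.

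Of 17 tested genes of TGF-beta and BMP signalling, CHRDL1, a secreted BMP antagonist (177, 33.5 and 7.86 CPM), and TGFBR3 (betaglycan), a TGF-beta co-receptor (20.1, 7.18 and 2.98 CPM), were gained. The lost members were the ligands TGFB3 (21.2, 49.5 and 115 CPM) and INHBA (6.10, 23.3 and 20.4 CPM) and the inhibitory factors SMAD7 (7.33, 30.3 and 18.9 CPM) and SMAD6 (4.33, 15.7 and 10.04 CPM). With TMM, TGFB3 was not past the limit, at -0.92 against the lower of the others, and SMAD6 fell under the mean of 10 CPM needed to be tested. None of these 4 losses was past the limit with a pseudocount of 10 CPM (-0.93 for TGFB3, -0.92 for INHBA, -0.74 for SMAD7 and -0.48 for SMAD6), nor was the gain of TGFBR3 (0.81). SMAD6 was also not called among G1 cells (-0.89), with barcodes of at least 500 UMIs (-0.94) or after thinning (-0.83).

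Of 14 CCN genes and YAP targets, WISP2 (CCN5), a secreted matricellular protein, was gained at 621, 226 and 61.0 CPM in AT, BM and PB. CTGF (CCN2), a matricellular factor of fibrosis, was lost at 11.6, 199 and 42.9 CPM. AMOTL1, an angiomotin family protein of cell junctions, was lost at 3.60, 15.6 and 29.6 CPM and WISP1 (CCN4) at 6.88, 18.0 and 16.3 CPM. CCN family members therefore differed in both directions. All 4 calls of this list held with TMM, but WISP1 was not past the limit in G1 cells only (-0.99) nor, like AMOTL1, with a pseudocount of 10 CPM (-0.64 for WISP1 and -0.91 for AMOTL1).

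Of 6 tested WNT genes, TCF7, a transcription factor of the pathway, was lost at 1.0, 15.4 and 56.2 CPM. All 6 were at least 2-fold lower in AT than in BM, or 3 of 6 with TMM or median-of-ratios factors, under which DKK1, DKK3 and FZD6 were not (-0.75, -0.85 and -0.97 with TMM, a count and genes chosen after seeing the data), whereas against PB 2 were at least 2-fold higher and 1 was lower. Over all tested genes 7.19% were at least 2-fold lower in AT than in BM before such factors. The receptor FZD1 stood at 44.5, 131 and 71.2 CPM and the secreted DKK3 at 48.9, 108 and 98.4 CPM, neither past the limit against both. Of 7 retinoic acid genes, ALDH1A3, which makes retinoic acid (5.35, 77.3 and 75.7 CPM), and DHRS3, which reduces retinal (5.03, 18.7 and 34.8 CPM), were lost. This list had a median of -1.26, or -1.11 with TMM.

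Few genes of hypoxia and of the integrated stress response were called. Of 21 tested hypoxia genes, ADM was gained and EPAS1 (HIF-2 alpha) was lost at 5.63, 98.4 and 28.4 CPM in AT, BM and PB, with a median of -0.61. Of 23 tested genes of the integrated stress response, ATF5 alone was gained, at 408 CPM in AT, 36.6 CPM in BM and 97.4 CPM in PB. Against BM alone, 4 of the 23 were at least 2-fold higher in AT and 0 lower, or 8 higher with TMM or median-of-ratios factors. The share higher than in BM over all tested genes was 2.03% before such factors. Against PB alone, 1 was higher and 0 lower. ATF5 encodes a transcription factor whose translation rises under stress. NUPR1, a stress-induced chromatin protein, stood at 716, 229 and 546 CPM and SLC7A5, an amino acid transporter, at 18.3, 26.1 and 33.2 CPM.

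Of 22 tested proliferation genes none was gained or lost, although 9 were at least 2-fold lower in AT than in BM, or 5 with TMM. Over all tested genes the share lower than in BM was 7.19% before TMM. UHRF1, a factor of maintenance methylation in S phase, stood at 4.90, 25.9 and 6.29 CPM and MCM3, a subunit of the replicative helicase, at 7.88, 25.2 and 8.67 CPM. The tested proliferation genes of AT thus lay near those of PB. By the phase scores, however, which were set within each library, AT had a smaller share of cells in G1 (63.8%) than BM (74.7%) or PB (76.0%). How these measures relate was not tested. With cells scored as G1 only, 97 genes were gained and 235 lost, of which 80 and 210 were among those counted over all cells.

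KRT8 and UPK3B, both also markers of mesothelium, were gained in AT. UPK3B, a uroplakin of mesothelium and bladder, stood at 38.0, 13.3 and 1.32 CPM. The 6 mesothelial markers in the files summed to 86.3, 24.5 and 17.2 CPM, in AT mostly from KRT8 and UPK3B themselves. WT1, a transcription factor of mesothelium and kidney, had 109, 2 and 0 UMIs in AT, BM and PB. CALB2 (calretinin) had 6, 399 and 660 UMIs, LRRN4 had 3 in AT and BNC1 had none. Over the 5403 thinned AT cells Spearman's rho of KRT8 was 0.0018 with UPK3B and -0.0030 with WT1, given as a description of sparse counts. The part of mesothelial cells in the KRT8 level was not tested, and rho over counts this sparse cannot show it.

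The gained genes were also read over single AT cells, each thinned to 2500 UMIs. If all cells held a gene at the same level, Poisson counting would set the share of cells with a UMI, and a lower observed share means that the UMIs were concentrated in fewer cells. The observed share was 0.992 times the Poisson share in the median of all tested genes and 0.957 times in the median of the gained genes, and it was under 0.9 times for 136 of the 6550 tested and 17 of the 82 gained genes. This ratio depends on a gene's level as well as on its spread, and these counts were not matched for level.

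Among the 17 gained genes with ratios under 0.9 were CALCA, ACTG2, DES, IGFBP5, KRT8 and ADM, and also G0S2 (0.81), ATF5 (0.81), MFAP4 (0.85), PTHLH (0.87) and THBS2 (0.89). CALCA, which encodes calcitonin and a vasodilator peptide, was seen in 6.13% of thinned AT cells where Poisson counting gave 13.1%. For ACTG2 the shares were 35.4% and 63.5%, and for DES 23.5% and 38.9%. IGFBP5 was seen in 33.1% instead of 47.2%, KRT8 in 7.18% instead of 10.2% and ADM in 67.4% instead of 83.5%. The levels of these genes in AT are thus means over cells that differed.

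Other gained genes had ratios near 1. For a gene expected in few cells the ratio can stay near 1 although cells differ. The genes that follow are therefore not shown to be even over cells. MITF was seen in 5.61% of thinned cells against 5.77%, F2RL2 in 11.2% against 11.3% and MMP23B in 8.05% against 8.23%. RABGAP1L was seen in 23.3% against 24.4%. The genes named by this measure were picked after its values were seen, and MGP and the identifiers ENSECAG00000021292 and ENSECAG00000030857 had lower ratios than ADM (0.79, 0.74 and 0.79 against 0.81).

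**Figure D5:**
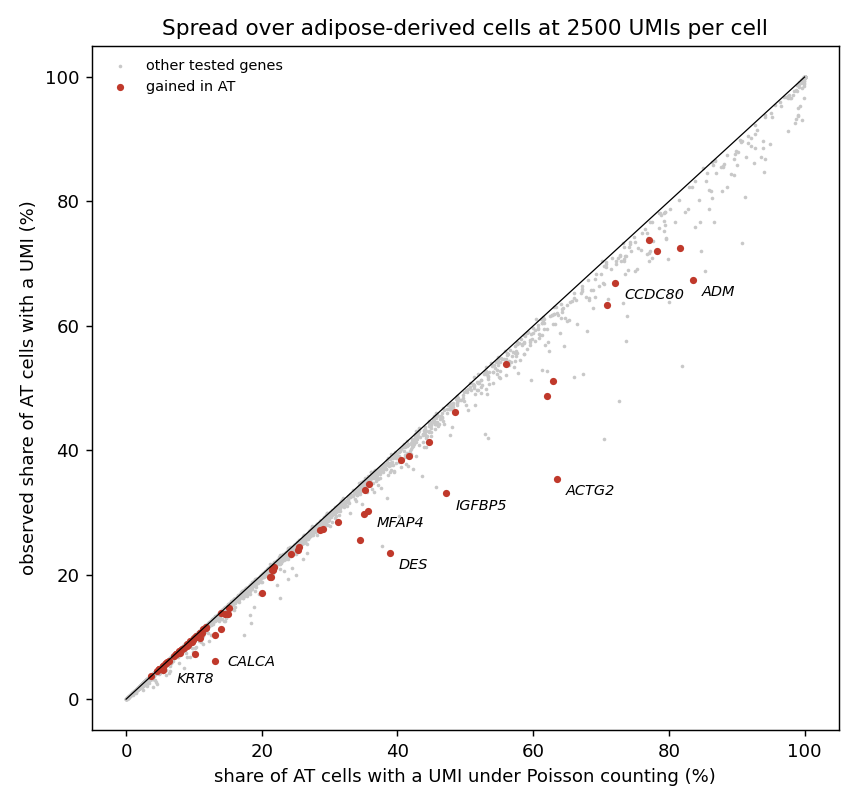
Share of AT cells with a UMI, in percent, as observed after thinning to 2500 UMIs per cell (y axis) against the share that Poisson counting at the gene's mean would give (x axis), for each tested gene, with gained genes in red and the line of equality. ACTG2 (35.4% against 63.5%), DES, IGFBP5 and ADM lie well below the line, whereas most gained genes lie close to it.

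Gained and lost genes were found on most chromosomes. Over the 32 nuclear chromosomes of EquCab3.0 with tested genes, the median difference of AT against the mean of BM and PB ran from -0.20 on chromosome 4 to -0.07 on chromosome 16, beside -0.13 over all tested genes. The share of gained genes ran from 0% on chromosomes 20, 24, 27 and 30 to 5.97% on chromosome 29 (4 of 67 genes), beside 1.25% over all. The share of lost genes ran from 0% on chromosome 29 to 7.77% on chromosome 23 (8 of 103 genes), beside 3.40% over all. These shares rest on few genes each.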

How the data were processed

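Cells of 3 sources of 1 mare were profiled with the 10x Genomics 3′ kit, 1 library each. Per the study's methods the authors mapped reads to EquCab3.0 with Cell Ranger, counted UMIs per gene with ESAT, including reads just downstream of genes, left out overlapping exons of opposite strands, and merged duplicated features into 1 entry per gene. Reads downstream of a gene can add counts of unannotated neighbours. The deposited values are raw UMI counts per gene and barcode, and the columns of each file belonged to 1 sample (0 columns were unmapped). The files give each gene's chromosome but no start or end, and sequences were not analysed here.

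Kept barcodes held 2500 to 15000 UMIs and at most 3% mitochondrial UMIs. The authors removed multiplets with DoubletDetection. Whether this preceded the deposit is not given in the sources used here, and an alternative dropped the top 5% of cells by Scrublet score in each library. The 77 genes not in all 3 files, with at most 29 UMIs in AT, were left out. Counts were summed per source and scaled to CPM in Python 3.11.15 with NumPy 2.4.6 and SciPy 1.17.1. G1 cells were called with Scanpy 1.11.5 from the human cell cycle genes of Seurat 5.3.0, and TMM factors came from edgeR 4.0.16 in R 4.3.3. With 1 library per source there was no test, and a 2-fold size rule was used instead. On simulated counts with 100 genes raised and 100 lowered 4-fold for AT against the other sources, over 6550 genes, all 100 and 100 were called, with 0 calls among 6350 unchanged genes. The simulated counts held Poisson counting error only, and the changes were well past the 2-fold limit, so that this outcome could hardly differ. It gives no rate of false calls, since it holds no spread between libraries.

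The members, gene lists and rules were chosen with earlier results of these data known. Named genes were the markers, the 15 symbols and 2 identifiers of largest difference per direction that the study does not list (seen in at least 10% of AT cells, or of BM and PB cells for losses), the 5 most counted near-exclusive genes per direction, and up to 4 called members per list and direction, or the 2 largest differences where fewer than 2 were called. A few genes that these rules cover are not reported here. Alternatives were TMM and median-of-ratios factors, a mean of 50 CPM or no filter, a pseudocount of 10 CPM, a minimum of 500 UMIs, no upper or mitochondrial limit, thinning to 2500 UMIs, the mean of single-cell CPM, G1 cells only, Scrublet scores, shared barcodes and a 4-fold limit.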

Additional observations from a re-analysis of the deposited data

Results flagged for a closer look

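Data outside the kept AT cells held signal of genes that the kept cells nearly lacked. In the 5711 AT barcodes under the limit of 2500 UMIs that are also in the PB file, ALPL stood at 305 CPM (1499 UMIs) and JAM2 at 165 CPM (813 UMIs), against 2.88 and 1.60 CPM in the kept AT cells. In the kept PB cells ALPL stood at 326 CPM and JAM2 at 166 CPM. In the 444 AT barcodes under the limit that are not in the PB file, ALPL stood at 1.64 CPM (1 UMI) and JAM2 at 8.19 CPM (5 UMIs).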

How the results depend on the processing

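No paired analysis was possible because each source was 1 library. The 39 genes chosen as markers or by the size of their difference kept their direction and their side of the 2-fold limit under every alternative that recomputes their values, the 4-fold limit aside. The filters on the mean cannot change a gene's difference, and genes under 50 CPM are not tested with the stricter one. For the numbers of genes gained, lost, higher than BM, lower than BM, higher than PB and lower than PB, in this order, the values were 28, 67, 54, 140, 69 and 100 with a mean of at least 50 CPM, where fewer genes are tested, 241, 435, 339, 1041, 581 and 729 with no filter, and 22, 73, 31, 130, 77 and 111 with the 4-fold limit. With a pseudocount of 10 CPM, 121 genes were lost, 86 were higher and 275 lower than in BM, and 124 higher and 214 lower than in PB. With TMM 231 were higher and 308 lower than in BM, and with median-of-ratios factors 227 and 311. All other counts lay within 1.5 times those reported. With a minimum of 500 UMIs, which admits AT barcodes shared with PB, 66 genes were gained and 171 lost. The sign of the median changed in 13 of 299 list values, for the MSC surface antigens, contractile genes, collagens, IGF axis, proteoglycans and integrated stress response. Leaving out every kept barcode found in another file could not be run, since no PB cell would be left. The alternative added after seeing the data instead kept the BM and PB barcodes that were not among the kept cells of another source. Of the called list members, 23 were no longer called with a pseudocount of 10 CPM, 12 with a minimum of 500 UMIs, 7 each with TMM, median-of-ratios factors and G1 cells, and at most 3 in the others, apart from a mean of 50 CPM and the 4-fold limit, which were not counted. Depth also limits the calls, since the counting interval stayed past the limit for 67 of 82 gained and 172 of 223 lost genes only, and no replicate was there to measure the spread between libraries.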

Other observations

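Some genes, chosen for this pattern, were concentrated in few AT cells. The first pair was near-exclusive to AT. TRH, the precursor of thyrotropin-releasing hormone, had 110 UMIs in 27 of the 5403 AT cells, up to 35 in 1 cell, and none in BM or PB. APOE, a lipid carrier protein, had 60 UMIs in 19 AT cells, up to 33 in 1 cell, 2 UMIs in BM and 1 UMI in PB. CALCA was a gained gene, just past the limit against BM, and not a near-exclusive one (57.1, 27.4 and 0 CPM in AT, BM and PB). It had 2281 UMIs in 596 AT cells, a mean of 3.83 per cell with a UMI, and up to 45 in 1 cell. By contrast WT1 had 109 UMIs in 104 AT cells and LIX1 281 UMIs in 265 cells, at most 2 in any cell. PRG4 (lubricin), the lubricant of joint surfaces, had 141 UMIs in 88 AT cells and 1 UMI in each of the other libraries, while its list, cartilage and tendon, had no member with a mean of 10 CPM.

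Among skeletal muscle markers, ACTA1, the skeletal muscle actin, had 156, 11 and 2 UMIs in AT, BM and PB, whereas MYOD1, MYOG and MYF5 had 1 UMI each in AT and PAX7 none. The 8 markers in the files summed to 4.10 CPM in AT, 0.373 CPM in BM and 0.144 CPM in PB. IBSP, an integrin-binding sialoprotein of bone, stood at 32.3 CPM in BM, 0.673 CPM in PB and 0 in AT.

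Gained genes with neither a place on the study's lists nor in the lists of pathways included the circadian factor DBP (60.2, 19.5 and 18.4 CPM in AT, BM and PB), the immune checkpoint gene VSIR (31.3, 5.52 and 9.75 CPM), the laminin chain LAMA4 (41.1, 5.74 and 14.8 CPM) and the hormone gene PTHLH (21.5, 6.73 and 3.03 CPM). SCARA5, a ferritin receptor of stromal cells, stood at 44.8, 18.8 and 0.216 CPM. These 5 were also named after their values were seen.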
